A study of Rattus norvegicus with 9 samples.

Results

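Mitochondria in heart muscle cells are kept in shape by fusion and fission and are cleared by mitophagy, and 8 genes of this machinery are described here. They are Mfn1, Mfn2 and Opa1 for fusion, Dnm1l, Mff and Fis1 for fission, and Pink1 and Fundc1 for mitophagy. They were chosen by name, for what their proteins do, but with earlier results of these data known. All 8 have a line among the 18629 genes of the table. All 8 also passed the filter on low counts, as did 13708 genes in all.

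The cells were primary cardiomyocytes of newborn (1- to 2-day-old) Sprague-Dawley rats, infected with adenovirus that carried wild-type Yap1 (Yap1 WT), a short hairpin RNA against Yap1 (Yap1 shRNA) or green fluorescent protein (GFP). YAP1 is a coactivator that the Hippo kinases hold in check and that acts through TEAD factors. The culture steps listed were the same for every group. Plating took 18 to 20 h, with serum at 10%. A preculture of 14 h followed, in which serum was down to 1% and the glucose level was 1 g/L. The treatment then lasted 48 h, at 33 mM glucose and 100 nM insulin. The GFP cells are thus controls for the virus and not for the medium. The hairpin group has no control hairpin to set it against. Each group has 3 libraries of messenger RNA, and nothing in the labels says whether these came from separate isolations or dishes, so the p-values measure the spread between these libraries, which may be technical.

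Mitofusins, the GTPases encoded by Mfn1 and Mfn2, tether and fuse the outer membranes of neighbouring mitochondria, and OPA1 fuses the inner membranes and keeps cristae tight. DRP1, encoded by Dnm1l, is recruited from the cytosol by adaptors such as MFF and pinches a mitochondrion apart, and FIS1 is a small outer membrane protein with an accessory role in this step. PINK1 is a kinase that gathers on damaged mitochondria and phosphorylates ubiquitin there, and FUNDC1 is an outer membrane receptor that binds the autophagosome directly. In the heart, which depends on mitochondrial ATP, loss of the mitofusins, OPA1 or DRP1 in mice is known to disturb the mitochondrial network and pump function.

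All of the 8 transcripts but Opa1 were lower in both Yap1 groups than in GFP cells. Pink1 had the largest change of the 8 in both comparisons with GFP. It fell by 1.49 on the log2 scale (SE 0.11) in Yap1 WT cells and by 1.72 (SE 0.12) in Yap1 shRNA cells. Opa1 rose by 0.44 (SE 0.05) in Yap1 shRNA cells, and in Yap1 WT cells its change of 0.08 (SE 0.05) did not pass the test. Set against Yap1 shRNA, Fundc1, Mff and Mfn1 were higher in Yap1 WT and Opa1 and Mfn2 were lower. The differences of Mfn1 and Mfn2 lost their calls under several other settings. The authors' DESeq2 q-values for these 2 are 0.232 and 0.113.

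Yap1 itself averaged 664 ± 132 reads per 1000000 assigned after TMM scaling (CPM) in Yap1 WT, 95.6 ± 0.360 CPM in Yap1 shRNA and 195 ± 4.36 CPM in GFP libraries (SD, n = 3 each), in the direction of its labels. The libraries held 10960051 to 11497104 assigned reads in Yap1 WT, 6103221 to 6357403 in Yap1 shRNA and 14868180 to 15368473 in GFP, so the counts are sparsest in the hairpin group. Of all genes tested, 63.8% were called in Yap1 WT against GFP, 78.3% in Yap1 shRNA against GFP and 62.5% in Yap1 WT against Yap1 shRNA, at an adjusted p under 0.05 in edgeR's quasi-likelihood test with Benjamini-Hochberg adjustment over all genes.

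The 8 genes have to be read against that background. They were chosen with earlier results of these data known, so setting them beside all genes describes them and tests nothing. In Yap1 WT against GFP, 7 of 8 (87.5%) were lower and 0 were higher, where 31.8% of all genes were lower and 32% were higher. CPM did not overlap between the groups for 8 of the 8, and for 70.7% of all genes. Their median change was -0.41 on the log2 scale, and the middle 50% of all genes lay between -0.40 and 0.40. In Yap1 shRNA against GFP, 7 of 8 were lower and 1 was higher, where 39.1% of all genes were lower and 39.2% higher, and their median was -0.56 where the middle 50% of all genes ran from -0.70 to 0.75. CPM did not overlap for 8 of the 8, and for 80.2% of all genes. In Yap1 WT against Yap1 shRNA, 3 of 8 were higher and 2 lower, where 31.2% of all genes were higher and 31.3% lower. The first 2 comparisons share the same GFP libraries. The balance of all calls depended on the scale: in Yap1 WT against GFP, 4391 genes were higher and 4360 lower with TMM, 5637 and 3344 with library size alone, and 5276 and 2826 on log2(TPM + 1). In Yap1 shRNA against GFP, 5371 genes were higher and 5362 lower with TMM, 4732 and 6091 with upper quartile scaling, and 6035 and 4129 on log2(TPM + 1). In Yap1 WT against Yap1 shRNA the 4273 higher and 4289 lower genes became 5561 and 3467 with upper quartile scaling and 5344 and 3585 with library size alone.

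**Figure D1:**
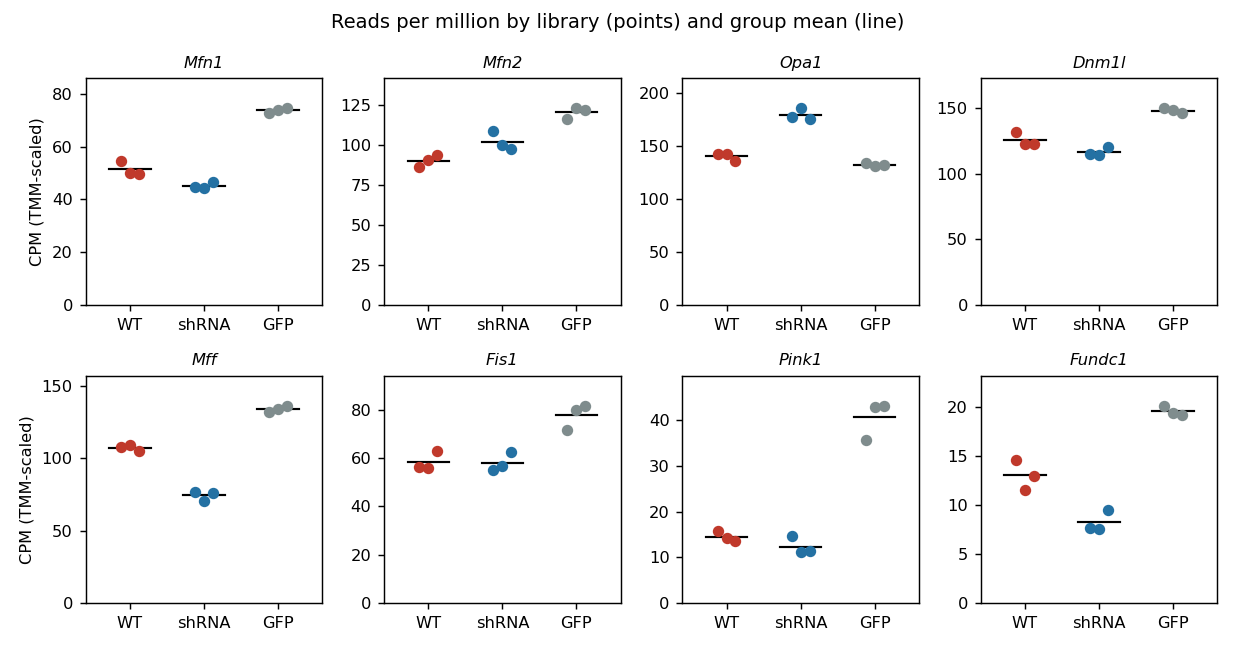
Level of each of the 8 genes in every library, in CPM after TMM scaling, with a point for each library and a line at the mean of 3 libraries in Yap1 WT, Yap1 shRNA and GFP cells. All GFP points of Pink1, at 35.7 to 43.1 CPM, lie above the 6 points of the Yap1 groups, and the Opa1 points of Yap1 shRNA, at 175 to 186 CPM, lie above all others.

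Of the genes for outer membrane fusion, Mfn1 (NCBI gene 192647, rn6 chromosome 2, 118929738 to 118971689, plus strand) stood at 54.7, 50.02 and 49.6 CPM in Yap1 WT libraries, 44.6, 44.4 and 46.7 CPM in Yap1 shRNA libraries and 72.8, 74.0 and 74.6 CPM in GFP libraries. The groups did not overlap, with GFP highest and the hairpin group lowest. Mfn1 fell by 0.52 on the log2 scale (SE 0.06, adjusted p = 4.17e-06) in Yap1 WT and by 0.71 (SE 0.06, adjusted p = 1.98e-07) in Yap1 shRNA against GFP. In Yap1 WT it was higher by 0.19 (SE 0.06, adjusted p = 0.0215) than in Yap1 shRNA. That small difference was lost without replicate 1 of Yap1 WT (0.15, adjusted p = 0.0593) and without replicate 1 or 2 of Yap1 shRNA (adjusted p = 0.0541 and 0.0583), and in the authors' deposited table its q-value is 0.232.

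Mfn2 (NCBI gene 64476, rn6 chromosome 5, 164684244 to 164715414, minus strand) encodes the mitofusin that also ties mitochondria to the endoplasmic reticulum. It stood at 86.2, 90.7 and 93.6 CPM in Yap1 WT, 108.4, 99.7 and 97.6 CPM in Yap1 shRNA and 116, 123 and 122 CPM in GFP libraries. Here the order of the Yap1 groups was the reverse of that of Mfn1, with Yap1 WT lowest, and again no groups overlapped. Mfn2 fell by 0.42 (SE 0.06, adjusted p = 2.72e-05) in Yap1 WT and by 0.24 (SE 0.06, adjusted p = 0.00200) in Yap1 shRNA against GFP. It was lower by 0.18 in Yap1 WT than in Yap1 shRNA (log2 fold change -0.18, SE 0.06, adjusted p = 0.0198), a call lost without replicate 1 of Yap1 WT (adjusted p = 0.0825) or of Yap1 shRNA (adjusted p = 0.0907) and absent from the authors' deposited table (q = 0.113). On log2(TPM + 1) the fall in Yap1 shRNA against GFP was not called either (-0.01, limma, adjusted p = 0.922).

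Because the mitofusin pair moved unequally, their proportion in the hairpin group differed from that in the other groups. The ratio of Mfn1 to Mfn2 in TPM, a within-library unit corrected for transcript length, was 1.297, 1.11 and 1.07 in Yap1 WT, 0.826, 0.879 and 0.954 in Yap1 shRNA and 1.26, 1.22 and 1.24 in GFP libraries. Yap1 WT and GFP overlapped in this ratio. In TPM, Mfn1 was thus the more abundant mitofusin transcript in all 6 Yap1 WT and GFP libraries. It was the less abundant one in all 3 hairpin libraries. That switch rests on the length correction. In CPM, which has none, Mfn1 was below Mfn2 in every library (ratios of 0.412 to 0.634), with the hairpin libraries again lowest. With 3 libraries against 3, an exact two-sided permutation test of a ratio cannot give a p below 0.10, so none is given.

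Opa1 (NCBI gene 171116, rn6 chromosome 11, 74717600 to 74793902, minus strand) stood at 143, 142 and 136 CPM in Yap1 WT libraries, 177, 186 and 175 CPM in Yap1 shRNA libraries and 133, 131 and 132 CPM in GFP libraries. All 3 hairpin libraries lay above the other 6. Opa1 rose by 0.44 (SE 0.05, adjusted p = 2.28e-06), 1.35-fold, in Yap1 shRNA against GFP, and was lower in Yap1 WT than in Yap1 shRNA (log2 fold change -0.35, SE 0.05, adjusted p = 3.72e-05). In Yap1 WT against GFP the groups did not overlap, yet the change of 0.08 (95% interval -0.02 to 0.19, adjusted p = 0.143) was not called. That comparison turned on the scale. With scaling by library size alone, which moved the median of all genes by 0.135, Opa1 changed by 0.22 (adjusted p = 0.00127), and on log2(TPM + 1), where the median of all genes moved by 0.158, by 0.37 (limma, adjusted p = 0.000370).

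Part of the TPM difference of Opa1 lies in the length the authors' quantification gave it. The expected count divided by TPM, relative to the median gene of the library, gives an apparent transcript length, which depends on the mix of isoforms assigned to a gene. For Opa1, which has 8 transcripts in the deposited annotation, it was 1.93 ± 0.0278 in Yap1 WT, 1.95 ± 0.0744 in Yap1 shRNA and 2.11 ± 0.00498 in GFP libraries (SD, n = 3 each). Both Yap1 groups lay below GFP without overlap, at 0.914 and 0.924 times its length, which is short of the 1.1-fold difference used as a limit. That limit was passed by 1.18% of 11672 genes in Yap1 WT against GFP by 2.7% in Yap1 shRNA against GFP and by 1.33% in Yap1 WT against Yap1 shRNA. Of the 8 genes, 0 passed it in any of the 3 comparisons.

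Among the other 7 genes the apparent length of Fis1 was 1.05 times that of GFP in Yap1 shRNA, with no overlap, and Mff stood at 0.983 and 0.965 times GFP in Yap1 WT and Yap1 shRNA. Mff has 19 annotated transcripts and Fis1 has 4. Mfn1, Pink1 and Fundc1 have 1 transcript each and showed ratios of 1.00 to 1.01 to GFP. The measure is thus steady where there is no isoform to choose. Even so, Mfn1 did not overlap GFP in Yap1 WT or in Yap1 shRNA (1.003 and 1.006 times GFP). Pink1 and Fundc1 did not overlap it in Yap1 shRNA (both 1.006). Dnm1l and Mff did not overlap GFP in either Yap1 group. Lack of overlap alone is therefore not particular to Opa1 and Fis1. Yap1 in Yap1 WT cells had 0.503 times the apparent length of GFP cells.

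**Figure D2:**
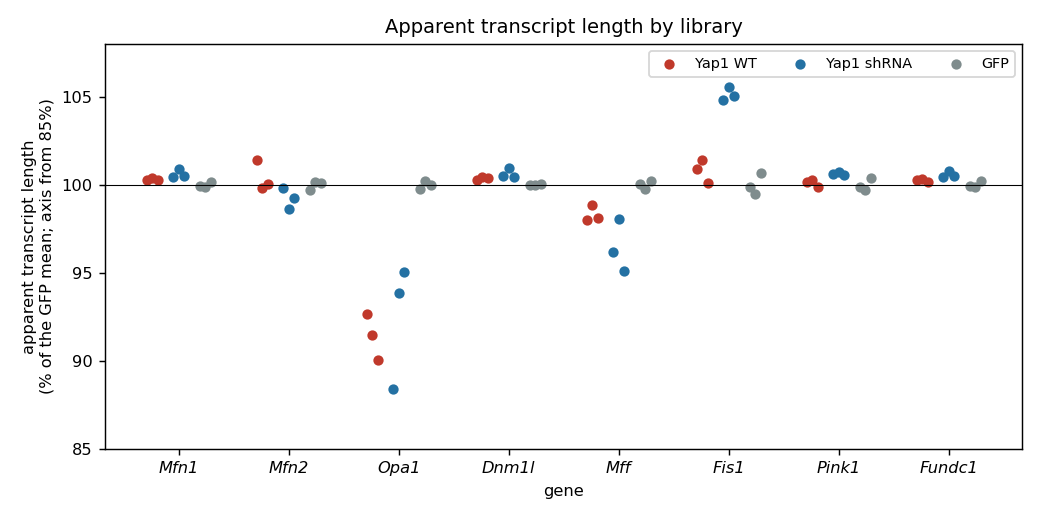
Apparent transcript length of each gene in every library as a percent of its GFP mean, from expected count over TPM and scaled to the median gene, on an axis that starts at 85%. The Opa1 points of both Yap1 groups lie below 100%, and those of the single-transcript genes Mfn1, Pink1 and Fundc1 lie close to it.

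Among the fission genes, Dnm1l (NCBI gene 114114, rn6 chromosome 11, 88830968 to 88882271, plus strand), which encodes the fission GTPase itself, stood at 131, 122 and 122 CPM in Yap1 WT, 115, 114 and 120 CPM in Yap1 shRNA and 150, 148 and 146 CPM in GFP libraries. Every GFP library was above every Yap1 library. Dnm1l fell by 0.24 (SE 0.05, adjusted p = 0.000918) in Yap1 WT and by 0.35 (SE 0.05, adjusted p = 3.56e-05) in Yap1 shRNA. These falls were the smallest called ones of the fission genes, and both were lost on log2(TPM + 1), at -0.08 (limma, adjusted p = 0.290) and -0.13 (adjusted p = 0.0608). The fall in Yap1 WT was also lost with scaling by library size alone (-0.10, adjusted p = 0.0782). Between the Yap1 groups the difference was 0.11 (95% interval -0.00 to 0.22, adjusted p = 0.0861).

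Mff (NCBI gene 301563, rn6 chromosome 9, 88490280 to 88518517, plus strand), the DRP1 adaptor, stood at 107.7, 109 and 105 CPM in Yap1 WT libraries, 76.9, 70.3 and 75.8 CPM in Yap1 shRNA libraries and 132, 134 and 136 CPM in GFP libraries. The groups formed 3 separate steps with the hairpin group lowest. Mff fell by 0.32 (SE 0.05, adjusted p = 8.73e-05) in Yap1 WT and by 0.85 (SE 0.05, adjusted p = 7.23e-09), 1.80-fold, in Yap1 shRNA. It was higher by 0.53 (SE 0.05, adjusted p = 2.31e-06) in Yap1 WT than in Yap1 shRNA, the lowest adjusted p of the 8 genes between those groups. On log2(TPM + 1) its fall in Yap1 WT was -0.13 and was not called (limma, adjusted p = 0.101), while that in Yap1 shRNA was.

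Fis1 (NCBI gene 288584, rn6 chromosome 12, 22750485 to 22765324, minus strand) stood at 56.5, 55.9 and 63.0 CPM in Yap1 WT, 55.3, 56.7 and 62.6 CPM in Yap1 shRNA and 71.9, 80.04 and 81.8 CPM in GFP libraries. The Yap1 groups overlapped almost fully, and both lay below GFP. Fis1 fell by 0.41 (SE 0.07, adjusted p = 0.000224) in Yap1 WT and by 0.42 (SE 0.08, adjusted p = 0.000201) in Yap1 shRNA, and between these groups the difference was 0.01 (95% interval -0.16 to 0.17, adjusted p = 0.949).

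The balance within the fission genes therefore differed in the hairpin group. The TPM ratio of Mff to Fis1 was 0.870, 0.888 and 0.755 in Yap1 WT, 0.672, 0.592 and 0.593 in Yap1 shRNA and 0.813, 0.739 and 0.742 in GFP libraries. The hairpin libraries were below the other 6, and Yap1 WT overlapped GFP. The summed TPM of both mitofusins over that of Dnm1l was 1.69 ± 0.0584 in Yap1 WT, 1.83 ± 0.0686 in Yap1 shRNA and 1.99 ± 0.0614 in GFP (SD, n = 3 each). For this ratio both Yap1 groups lay below GFP, whose lowest library was at 1.92, and the highest hairpin library was at 1.89. Taken from CPM, the same ratio was 1.33, 1.27 and 1.204 in Yap1 shRNA and 1.26, 1.33 and 1.35 in GFP libraries, which overlap.

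**Figure D3:**
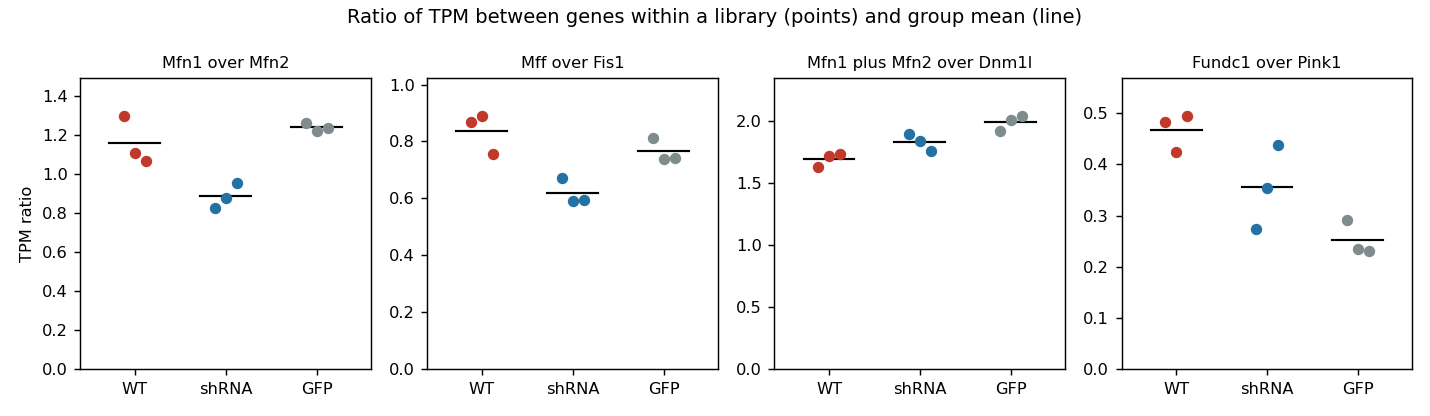
TPM ratios between pairs of the 8 genes in each library (points), by group, with a line at the mean of 3 libraries. The hairpin libraries lie lowest for Mfn1 over Mfn2 (0.826 to 0.954) and for Mff over Fis1 (0.592 to 0.672).

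Of the mitophagy genes, Pink1 (NCBI gene 298575, rn6 chromosome 5, 156677146 to 156689258, minus strand) stood at 15.6, 14.1 and 13.5 CPM in Yap1 WT, 14.5, 11.1 and 11.3 CPM in Yap1 shRNA and 35.7, 43.0 and 43.1 CPM in GFP libraries. These rest on 158 to 189 reads per library in Yap1 WT, 66 to 91 in Yap1 shRNA and 515 to 635 in GFP. The highest Yap1 library, at 15.6 CPM, lay below the lowest GFP library, at 35.7 CPM. Pink1 fell 2.81-fold (log2 fold change -1.49, SE 0.11, adjusted p = 7.27e-08) in Yap1 WT and 3.29-fold (-1.72, SE 0.12, adjusted p = 2.11e-08) in Yap1 shRNA. Its change stood at percentile 3.06 of all genes' changes, from the most negative, in Yap1 WT against GFP and at percentile 6.30 in Yap1 shRNA against GFP. The Yap1 groups overlapped, and their difference of 0.23 (95% interval -0.06 to 0.51, adjusted p = 0.156) was not called, though it was without replicate 1 of Yap1 shRNA, the highest hairpin library (0.37, adjusted p = 0.0441).

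Fundc1 (NCBI gene 363442, rn6 chromosome X, 5549468 to 5566125, plus strand) was the scarcest of the 8, at 14.6, 11.5 and 12.9 CPM in Yap1 WT, 7.67, 7.59 and 9.501 CPM in Yap1 shRNA and 20.1, 19.4 and 19.2 CPM in GFP libraries. It had 135 to 176 reads per library in Yap1 WT, 45 to 59 in Yap1 shRNA and 282 to 290 in GFP, so its errors are among the widest. The groups formed 3 steps like those of Mff. Fundc1 fell by 0.59 (SE 0.10, adjusted p = 0.000270) in Yap1 WT and 2.37-fold (log2 fold change -1.24, SE 0.12, adjusted p = 7.05e-07) in Yap1 shRNA against GFP. It was higher by 0.65 (SE 0.13, adjusted p = 0.000682) in Yap1 WT than in Yap1 shRNA. The TPM ratio of Fundc1 to Pink1 was 0.467 ± 0.0376 in Yap1 WT, 0.355 ± 0.0817 in Yap1 shRNA and 0.252 ± 0.0344 in GFP (SD, n = 3 each), and the Yap1 WT libraries alone stood clear of GFP.

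**Figure D4:**
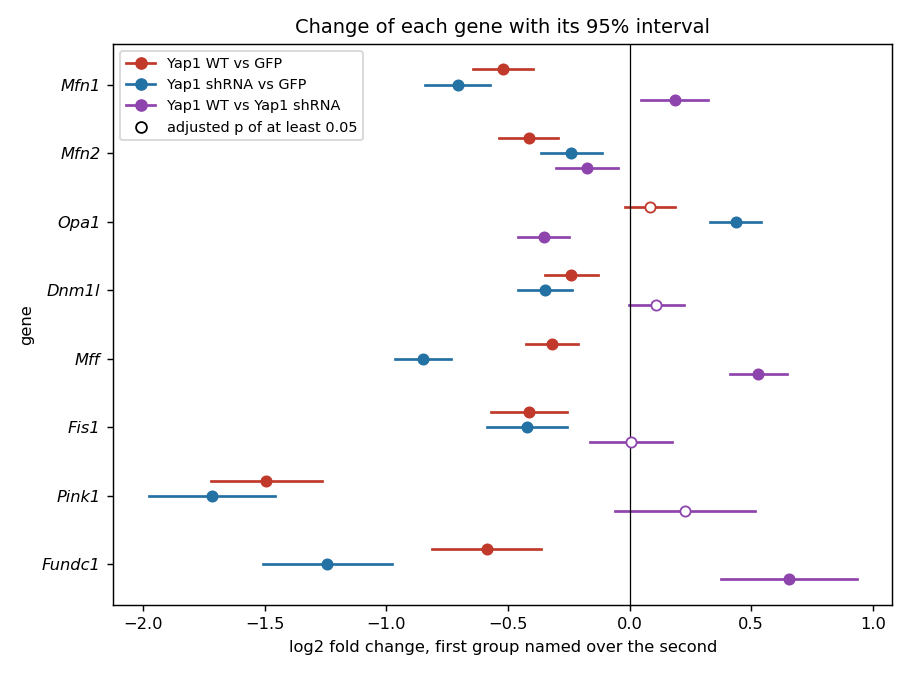
Log2 fold change of each gene in the 3 comparisons, with its 95% interval, filled where the adjusted p was under 0.05 and open where it was not. Pink1 lies farthest to the left in both comparisons with GFP (-1.49 and -1.72), and Opa1 is the gene to the right of 0 in both.

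Levels can be set side by side between genes in TPM. In GFP cells the order from the top was Fis1 (130.2 ± 6.58 TPM), Mff (99.4 ± 1.51), Pink1 (55.6 ± 4.84), Mfn1 (45.7 ± 0.543), Dnm1l (41.6 ± 1.22), Mfn2 (36.9 ± 0.382), Opa1 (32.5 ± 0.978) and Fundc1 (13.9 ± 0.601 TPM; SD, n = 3 each). No neighbours in that order overlapped. In both Yap1 groups Opa1 and Pink1 had changed places. Opa1 was the third at 42.3 ± 1.105 TPM in Yap1 WT and 55.5 ± 3.85 TPM in Yap1 shRNA, and Pink1 was the seventh at 22.2 ± 1.91 TPM in Yap1 WT and 19.6 ± 3.82 TPM in Yap1 shRNA. Opa1 overlapped its neighbour Dnm1l (39.4 ± 2.06 TPM) in Yap1 WT, and Dnm1l also overlapped Mfn1 there (35.7 ± 2.32 TPM). In Yap1 shRNA the overlapping neighbours were Dnm1l (37.9 ± 1.57 TPM) and Mfn2 (36.8 ± 3.15 TPM).

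Opa1 and Pink1 are the genes that changed places in the order of TPM, and their promoters are printed for that reason. The changes of Opa1 were ordinary for these data. They stood at percentile 56.0 of all genes' changes in Yap1 WT and 65.9 in Yap1 shRNA against GFP, within the middle 50%. They are given on the gene's strand from 250 bases before the start site to 50 after it, from RefSeq on build GRCr8, and no coordinate is carried over from rn6. Capitals mark matches to the letters searched for NRF1, a factor of nuclear genes for mitochondrial proteins (GCGCA and GCGC with any 1 base between them), and to CACGTG, the E-box of bHLH factors. The Opa1 window is chr11:84689851-84690150 and the Pink1 window chr5:155825901-155826200, both on the minus strand, with 59.3% and 60.7% G or C.
Opa1: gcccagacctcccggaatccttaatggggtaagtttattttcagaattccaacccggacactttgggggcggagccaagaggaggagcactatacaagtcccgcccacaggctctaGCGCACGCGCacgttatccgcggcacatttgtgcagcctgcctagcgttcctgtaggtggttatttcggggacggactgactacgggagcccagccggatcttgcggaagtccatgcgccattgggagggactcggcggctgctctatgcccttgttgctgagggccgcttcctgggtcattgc
Pink1: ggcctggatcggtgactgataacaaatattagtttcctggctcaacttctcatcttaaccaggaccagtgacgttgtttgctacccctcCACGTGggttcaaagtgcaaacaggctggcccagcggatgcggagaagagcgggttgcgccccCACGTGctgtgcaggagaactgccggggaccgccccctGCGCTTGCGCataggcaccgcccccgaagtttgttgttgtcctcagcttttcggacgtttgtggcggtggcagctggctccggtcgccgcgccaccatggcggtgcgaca

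The NRF1 letters began 134 bases before the start site in Opa1 and 60 before it in Pink1, and 4.25% of 33469 rat promoters of the same length hold them. Pink1 also held the E-box at 161 and 98 bases before the start, letters that 6.42% of promoters hold. Of the 8 genes, 6 had a promoter in the table, and Mfn2 and Fundc1 had none. These 6 genes had 7 windows between them, and all were searched. GGAATG, the TEAD letters through which YAP1 acts, stand in 14.2% of all promoters and in none of these windows. Mfn1 and Fis1 held the ETS letters CCGGAAGT (3.81% of promoters) and Dnm1l the FOXO letters GTAAACA (3.78%), while TGACGTCA (CRE, 1.83%) and TCAAGGTCA (ERR, 0.433%) were in none of the 6. Both strands were searched. A match is a string of letters and shows no binding, and its absence concerns these 300 bases only.

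Around the 8 genes, the wider fission and mitophagy lists were mixed, while most fusion and inner membrane genes fell against GFP. The counts of these lists stand beside 32% of all genes higher and 31.8% lower in Yap1 WT against GFP. In Yap1 shRNA against GFP these shares were 39.2% and 39.1%, and in Yap1 WT against Yap1 shRNA 31.2% and 31.3%. Of 22 tested fusion and inner membrane genes, none of them among the 8, 1 rose and 14 fell in Yap1 WT against GFP, and 3 rose and 17 fell in Yap1 shRNA against GFP, with medians of -0.32 and -0.49. Against Yap1 shRNA, 9 were higher and 3 lower in Yap1 WT. Miga2, an outer membrane protein that aids fusion, fell by 1.07 in Yap1 WT (38.8 ± 5.28 against 81.3 ± 0.932 CPM) and by 1.71 in Yap1 shRNA (24.9 ± 2.00 CPM). Spg7, a subunit of the inner membrane m-AAA protease, fell by 0.42 and 0.99 in these groups, and Micos13, a subunit of the cristae complex MICOS, fell by 0.45 and 1.05. Afg3l2, the partner subunit of Spg7, rose by 0.90 in Yap1 shRNA (175 ± 11.01 against 94.1 ± 1.52 CPM in GFP; SD, n = 3 each), and its value in Yap1 WT was 0.13 (adjusted p = 0.0550).

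The proteases that cut OPA1 into its short forms, Oma1 and Yme1l1, were looked up after the values of their list had been seen. Yme1l1 stood at 83.7 ± 3.95 CPM in Yap1 WT, 83.4 ± 7.38 CPM in Yap1 shRNA and 83.0 ± 9.58 CPM in GFP, with changes of 0.01 against GFP in both groups (adjusted p = 0.911 and 0.951). Oma1 stood at 7.92 ± 0.0466 CPM in Yap1 WT, 5.97 ± 1.503 CPM in Yap1 shRNA and 8.10 ± 1.34 CPM in GFP. Its fall of 0.44 in Yap1 shRNA was called at an adjusted p of 0.0446 and lost under most other settings, and its value in Yap1 WT was -0.03 (adjusted p = 0.872).

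Of 21 tested fission genes and adaptors, 8 rose and 7 fell in Yap1 WT against GFP, and 13 rose and 7 fell in Yap1 shRNA against GFP (medians 0.09 and 0.38). Among all genes, 32% rose and 31.8% fell in the first of these comparisons and 39.2% and 39.1% in the second. In Yap1 WT against Yap1 shRNA 7 of the list were higher and 10 lower, beside 31.2% and 31.3% of all genes. Dnm1l, Mff and Fis1, which are not in this list, fell in both groups. Spire1, an actin nucleator whose mitochondrial form aids fission, rose by 0.44 in Yap1 WT (32.7 ± 0.963 CPM) and by 2.07 in Yap1 shRNA (102 ± 3.13 CPM), against 24.2 ± 1.14 CPM in GFP. Ppp3ca, a catalytic subunit of calcineurin, the phosphatase that acts on DRP1, rose by 0.86 and 1.59, and the phosphatase Pgam5 rose by 0.49 and 1.58. Prkaca, a catalytic protein kinase A subunit that phosphorylates DRP1, fell by 1.36 in Yap1 WT (85.5 ± 13.4 CPM) and by 2.06 in Yap1 shRNA (52.6 ± 1.98 CPM), against 219 ± 5.98 CPM in GFP. Other genes of the list with a known tie to DRP1 phosphorylation, added after their values were seen, were mixed. Ppp3cb, another catalytic calcineurin subunit, fell by 0.35 in Yap1 WT and by 0.61 in Yap1 shRNA, the first of which was lost on log2(TPM + 1) (limma, adjusted p = 0.143). The kinase genes Cdk1 (-0.65 and -1.02) and Cdk5 (-0.39 and -1.14) fell, and Camk2d was at 0.14 (adjusted p = 0.0817) in Yap1 WT and rose by 0.19 in Yap1 shRNA (adjusted p = 0.0297), calls that changed with the scaling.

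The other DRP1 receptors, named here after their values were seen, also split. Mief2 (MiD49) fell by 0.81 in Yap1 WT (25.9 ± 2.03 CPM) and by 1.42 in Yap1 shRNA (16.9 ± 1.58 CPM), against 45.4 ± 1.89 CPM in GFP. Mief1 (MiD51) rose by 0.39 in Yap1 shRNA (adjusted p = 0.000136), and its value in Yap1 WT was 0.09 (adjusted p = 0.267).

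Of 32 tested genes for mitophagy receptors and the ubiquitin route, 15 rose and 9 fell in Yap1 WT against GFP, and 18 rose and 11 fell in Yap1 shRNA against GFP (medians 0.11 and 0.48). The shares over all genes were 32% higher and 31.8% lower in the first comparison and 39.2% and 39.1% in the second. Between the Yap1 groups 7 of the list were higher and 19 lower in Yap1 WT, beside 31.2% and 31.3% of all genes. Sqstm1, which encodes the autophagy adaptor p62, rose 4.30-fold in Yap1 WT (1288 ± 246 CPM) and 10.9-fold in Yap1 shRNA (3251 ± 9.27 CPM), against 299 ± 12.8 CPM in GFP. Tomm70, an import receptor of the outer membrane, rose by 0.30 and 1.59, and Usp15, a deubiquitinase, rose by 0.56 and 1.46. Nipsnap2, which marks damaged mitochondria for autophagy adaptors, fell 2.98-fold in Yap1 WT (64.8 ± 6.06 CPM) and 7.32-fold in Yap1 shRNA (26.4 ± 2.70 CPM), against 193 ± 5.45 CPM in GFP.

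The receptors Bnip3 and Bnip3l (NIX) were named after their values were seen. Bnip3 rose by 0.35 in Yap1 WT and 0.93 in Yap1 shRNA, at 96.3 ± 11.5 and 144 ± 9.75 CPM against 75.4 ± 0.470 CPM in GFP. Bnip3l fell by 0.53 in Yap1 shRNA (51.1 ± 3.47 against 73.9 ± 1.07 CPM), and its value in Yap1 WT was 0.07 (adjusted p = 0.279).

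**Figure D5:**
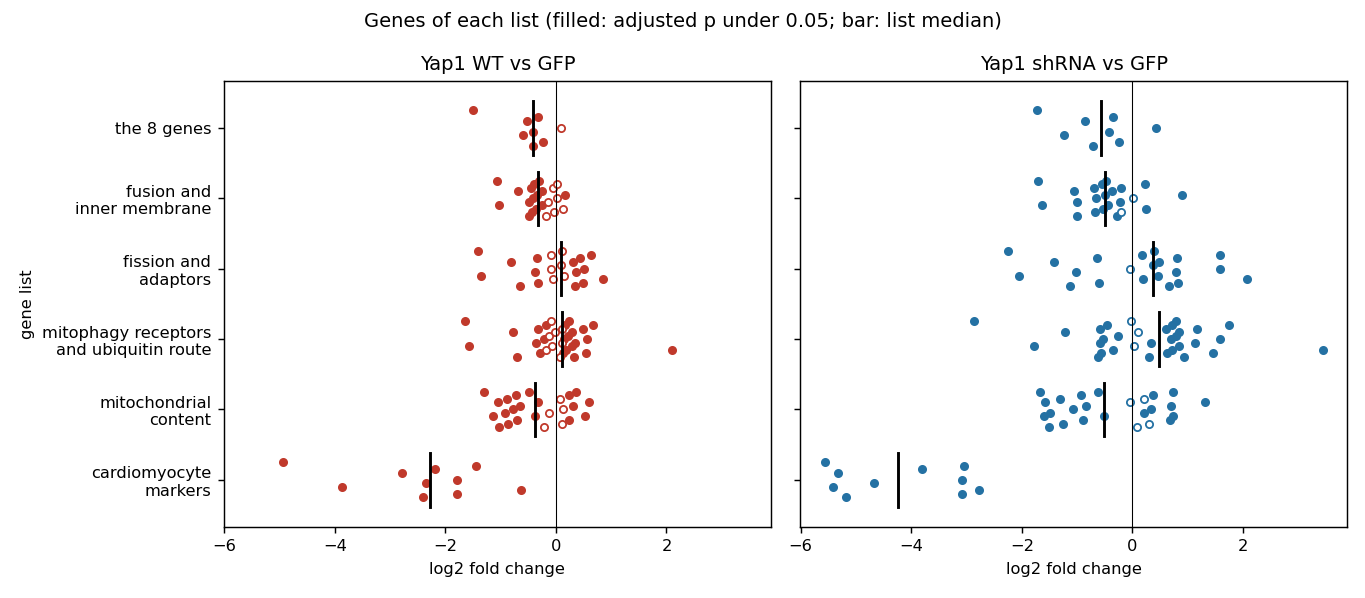
Log2 fold changes of the tested genes of each list, with a point for each gene, filled where called, and a bar at the list's median, for Yap1 WT against GFP and Yap1 shRNA against GFP. The fusion list has its medians below 0 (-0.32 and -0.49) and the mitophagy list above 0 (0.11 and 0.48).

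Transcripts of mitochondrial content and of cell type markers also differed between the groups. Over all genes, 32% rose and 31.8% fell in Yap1 WT against GFP, and 39.2% and 39.1% in Yap1 shRNA against GFP. Of 25 nuclear genes for mitochondrial content, 6 rose and 14 fell in Yap1 WT and 8 rose and 13 fell in Yap1 shRNA against GFP, with medians of -0.38 and -0.51, and their summed level was 4627 to 4865 CPM in Yap1 WT, 4240 to 4674 CPM in Yap1 shRNA and 7002 to 7390 CPM in GFP libraries. The 4 with the lowest p, Atp5f1a of ATP synthase, Sdha of complex II, cytochrome c (Cycs) and the ADP/ATP carrier Slc25a4, fell by 0.77 to 1.295 in Yap1 WT and by 1.48 to 1.67 in Yap1 shRNA. Ppargc1a, the coactivator of mitochondrial biogenesis, named after its values were seen, fell by 1.14 and 1.58.

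All 10 cardiomyocyte markers fell in both Yap1 groups, with medians of -2.28 and -4.24, where 31.8% and 39.1% of all genes fell. Their summed level was 7994 to 12748 CPM in Yap1 WT, 1835 to 2304 CPM in Yap1 shRNA and 44687 to 45646 CPM in GFP libraries, so the labelled cell type is plain in GFP libraries and far weaker in the hairpin group. In bulk RNA, fewer cardiomyocytes and less marker RNA per cell cannot be told apart. Of 10 fibroblast markers 3 rose and 6 fell in Yap1 WT (12612 to 17039 CPM) and 1 rose and 9 fell in Yap1 shRNA (7881 to 8623 CPM), against 18949 to 20183 CPM in GFP. Of 8 smooth muscle and pericyte markers 1 rose and 7 fell in both groups (3672 to 5015 CPM in Yap1 WT, 3361 to 3786 CPM in Yap1 shRNA, 8664 to 9170 CPM in GFP). Endothelial and macrophage markers were scarce everywhere, at 61.0 to 66.7, 71.8 to 76.1 and 46.1 to 47.2 CPM for the endothelial sum and 118 to 120.2, 39.0 to 57.5 and 93.2 to 111 CPM for the macrophage sum in Yap1 WT, Yap1 shRNA and GFP, and C1qb was at 0 in the hairpin libraries. Of the 8 tested in each list, 4 endothelial markers rose and 1 fell in Yap1 WT and 7 rose and 1 fell in Yap1 shRNA, and 2 macrophage markers rose and 1 fell in Yap1 WT and 1 rose and 5 fell in Yap1 shRNA. The part of these differences in the changes of the 8 genes was not tested.

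Genes whose levels ran most like those of each member over the 9 libraries were found by the root mean square difference of log2 CPM after removing each gene's mean. The nearest to Pink1 was the transcription factor gene Klf2 (0.0846), and its distance was the widest of the 8 nearest pairs. The nearest to Opa1 was Zc3h7a (0.0319), at 69.8 ± 3.87 CPM in Yap1 WT, 92.3 ± 3.40 CPM in Yap1 shRNA and 66.3 ± 1.37 CPM in GFP. The nearest to Mfn1 was Lman1 (0.0376), to Mfn2 Fads3 (0.0544), to Dnm1l Cers2 (0.0429), to Mff Sirpa (0.0311), to Fis1 Tpgs1 (0.0530) and to Fundc1 Ppm1k (0.0497), a phosphatase of mitochondrial branched-chain amino acid breakdown. None of these 8 is another member. The names are not firm, since of the 16 nearest pairs (2 for each gene) 6 to 12 kept their place when a library was left out.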

How the data were processed

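The 8 genes and the wider lists were chosen with earlier results of these data known. Expected counts as deposited by the authors carry no normalization, and 89.8% of them are whole within 0.005. The deposited TPM values were scaled by the authors within a library. Per the submitters' processing notes, HISAT2, Bowtie2, RSEM 1.3.1 and DESeq2 1.4.5 were used with build rn6, and which did what is not given. The authors' log2 fold changes, p-values and q-values are DESeq2 output, per the file headers. FPKM columns (9) were not used. RNA was enriched on oligo(dT) and sequenced on a BGISEQ-500, and strand is not stated, so reads of overlapping antisense genes could not be told apart.

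After rounding, 1 model with group as its factor was fitted to the 9 libraries (edgeR 4.0.16 in R 4.3.3, TMM scaling, genes kept by filterByExpr). The quasi-likelihood F test was two-sided, with Benjamini-Hochberg adjustment over 13708 genes at 0.05. The biological coefficient of variation was 7.18%. CPM are TMM-scaled, and log2 fold changes are the first group over the second. Groups were taken from the labels, and no 2 libraries agreed within sampling noise. Fold changes rest on counts of 45 to 2188 reads per gene and library, and intervals at 95% come from the fit.

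Of each mitochondrial list the 4 genes with the lowest p against GFP were named. The cell type marker lists were described mainly by their counts and sums. A member's neighbours (2 each) were sought among genes whose mean CPM was 5 or more. Calcoco2 and Huwe1 of the mitophagy list were not analysed here. Genes under the filter were Pld6, Gdap1, Rgs5, Emcn and C1qb. Alternatives comprised scaling by RLE, by upper quartile or by library size alone, DESeq2 1.42.0, limma 3.58.1 (voom, and trend on log2(TPM + 1) and log2(TPM + 0.1)), other filters, the 6 compared libraries alone, thinning, a replicate block and each library left out. The edgeR fit was also run on simulated counts in which few genes changed, up or down at random. A far larger share was called in these data, so that run does not bear on their scaling. The values of 1 gene of the mitophagy list are not reported here.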

Additional observations from a re-analysis of the deposited data

How the results depend on the processing

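Of the fold changes of the 8 genes recomputed under 21 alternatives, 160 of 168 kept direction and call in Yap1 WT against GFP, 164 of 168 in Yap1 shRNA against GFP and 146 of 168 in Yap1 WT against Yap1 shRNA. The falls of Pink1, Mfn1, Fis1 and Fundc1 against GFP held in all of them. The median of the 8 ranged from -0.46 to -0.25, from -0.70 to -0.38 and from 0.09 to 0.29 in these comparisons. TPM moved the median of all genes by 0.158 and 0.206 against GFP, and genes called lower in Yap1 WT against GFP numbered 2826 on log2(TPM + 1) and 2762 on log2(TPM + 0.1), against 4360. Between the Yap1 groups, members called ranged from 3 (without Yap1 WT replicate 1) to 5 when a library was left out. There, Dnm1l was called with library size alone (0.22, adjusted p = 0.00205), upper quartile scaling (0.25, 0.00109) and no filter (0.14, 0.0458), and Pink1 with the first of these (0.34, 0.0369) and the second (0.36, 0.0257). Mfn1 lost its call in DESeq2 (adjusted p = 0.0663) and when thinned (0.0566). It also lost it on log2(TPM + 1) and log2(TPM + 0.1) (limma, adjusted p = 0.0815 and 0.0802). Mfn2 lost its call with library size alone (-0.06, 0.388), upper quartile scaling (-0.04, 0.589) and no filter (-0.14, 0.0782). Of the TPM ratios, those taken from CPM instead kept their directions against GFP, but the hairpin and GFP libraries then overlapped for both mitofusins over Dnm1l. The cause was not tested.

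The signs that turned were those of values near 0 that were not called. Fis1 between the Yap1 groups was -0.0021 when thinned and -0.044 to 0.064 with a library left out. Oma1 in Yap1 WT against GFP was 0.10 with library size alone, 0.12 and 0.14 on log2(TPM + 1) and log2(TPM + 0.1), 0.045 when thinned and -0.16 to 0.064 with a library left out. Yme1l1 in Yap1 WT against GFP was -0.033 with no filter, -0.00015 when thinned and -0.062 to 0.10 with a library left out. In Yap1 shRNA against GFP it was -0.13 with upper quartile scaling, -0.074 with no filter, -0.011 with the 6 libraries alone, -0.041 when thinned and -0.073 to 0.093 with a library left out. Between the Yap1 groups it was -0.040 and -0.041 on the TPM scales and -0.066 to 0.049 with a library left out. Camk2d between the Yap1 groups was 0.097 with upper quartile scaling, 0.073 with library size alone and -0.10 to 0.028 with a library left out. With a library left out, the fibroblast marker Dcn between the Yap1 groups was -0.10 to 0.24 and the macrophage marker Lyz2 in Yap1 WT against GFP -0.051 to 0.12. Fcer1g, another macrophage marker, was -0.13 there when thinned.

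With the replicate number as a block, 8812, 10752 and 8590 genes were called in Yap1 WT against GFP, Yap1 shRNA against GFP and Yap1 WT against Yap1 shRNA, against 8751, 10733 and 8562 without it, and 7, 8 and 5 of the 8 genes. Same-numbered libraries deviated together with correlations of -0.03 to 0.09 (9 pairs) and others with -0.11 to 0.06 (18 pairs), so the numbers were not taken as pairs. Depth limits Fundc1 and Pink1 most, with 45 to 59 and 66 to 91 reads in a hairpin library.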
